A study of Mus musculus with 36 samples.

Results

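Genes of extracellular proteolysis, 8 in all, were followed: the matrix metalloproteinases Mmp8, Mmp9, Mmp12, Mmp14 and Mmp19, and the tissue inhibitors of metalloproteinases Timp1, Timp2 and Timp3. They were chosen by name, with earlier results of these data known. Each was read from the probe set annotated with its symbol alone. All 8 members had 1 such probe set, out of 19938 genes with 1 symbol. The data were log2 values from 36 whole-transcript mouse arrays, in 9 groups of 4 biological replicates.

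All mice were C57BL/6. The 3 precursor populations were monocytes from the bone marrow of adults aged 6 to 12 weeks, monocytes from fetal liver at E15.5 and macrophages from yolk sac at E12.5. Alveolar macrophages of wild-type mice came from lavage at 6 to 12 weeks (adult) or at 6 weeks. The other 4 groups were alveolar macrophages recovered by lavage 6 weeks after bone marrow monocytes, fetal liver monocytes, yolk sac macrophages or adult alveolar macrophages had been given intranasally to neonatal Csf2rb-/- recipients. Csf2rb encodes the beta chain through which GM-CSF signals, which alveolar macrophages need. Donor and wild-type cells carried both CD45.1 and CD45.2, which marked them against recipient cells. Every transferred group had lived in a Csf2rb-/- lung and neither untransferred group had, so transfer and recipient genotype cannot be told apart. Collagenase freed the cells of yolk sac and fetal liver, bone marrow came from crushed bones and lungs were washed out. Tissue preparation and cell type therefore cannot be told apart where bone marrow or lavage cells were compared with cells of another tissue. Yolk sac and fetal liver cells shared the collagenase step, though tissue and embryonic day differed. The cells of each sample were sorted, and the values cannot separate less RNA per cell from fewer cells that express a gene.

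Matrix metalloproteinases are zinc-dependent endopeptidases that are made as inactive precursors and cleave collagens, elastin, other matrix proteins and cytokines. The tissue inhibitors bind their active sites, and Timp2 also helps membrane-bound Mmp14 to activate pro-Mmp2. Macrophages in the lung are known for Mmp12, the macrophage elastase, while Mmp8 is best known as the collagenase stored in neutrophil granules. RNA levels do not measure enzyme activity, which also depends on activation and inhibition.

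Arrays were comparable in scale. The median of an array lay between 4.54 and 4.73, and arrays of 1 group correlated at 0.963 to 0.982. The median over the whole table, 4.62 on the log2 scale, served as the mark of a dim value; genes above it in at least 4 arrays were tested, which left 12244 genes and 6 of the 8 members. Timp1 and Timp3 were below it in every array and were not tested. Mmp9 was above it in exactly 4 arrays, those of yolk sac macrophages, so it entered the test only through the group in which it was high. Markers bore out the alveolar macrophage labels: all 13 measured markers of that cell, such as Siglecf, Marco and Plet1, had a group mean above the table median in all 6 lavage groups. The summed level of these markers was 14.51 to 14.88 in lavage arrays and 8.55 to 9.85 in precursor arrays.

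Mmp12 and Mmp8 lie in 1 cluster of metalloproteinase genes on mouse chromosome 9, in the RefSeq order Mmp13, Mmp12, Mmp1b, Mmp3, Mmp1a, Mmp10, Mmp8, Mmp27, Mmp20 and Mmp7. The cluster was not high as a block: Mmp12 reached 10.50 and Mmp8 reached 10.25, while Mmp13 reached 5.85 and the other 7 stayed under the table median in all 36 arrays. Mmp8 was high in monocytes, in which Mmp12 was dim, while both were above the table median in all 24 lavage arrays. For this difference in precursors the 250 bases before their RefSeq starts (GRCm38.p6, plus strand) are shown, with 2 motifs in capitals. These are TGANTCA, the AP-1 motif, and AGGAAG or its reverse complement CTTCCT, a form of the Ets motif. Other stretches with the Ets core GGAA or TTCC were not searched for and stay in lower case. Mmp12 has 2 RefSeq starts, and the windows before them are chr9:7344147-7344396 and chr9:7347124-7347373. Mmp8 has 1, and its window is chr9:7558179-7558428.
Mmp12 start 1: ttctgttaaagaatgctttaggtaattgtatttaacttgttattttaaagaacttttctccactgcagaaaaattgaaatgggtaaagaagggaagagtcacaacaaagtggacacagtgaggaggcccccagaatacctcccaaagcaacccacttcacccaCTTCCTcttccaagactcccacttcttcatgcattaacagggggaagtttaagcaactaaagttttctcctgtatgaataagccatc
Mmp12 start 2: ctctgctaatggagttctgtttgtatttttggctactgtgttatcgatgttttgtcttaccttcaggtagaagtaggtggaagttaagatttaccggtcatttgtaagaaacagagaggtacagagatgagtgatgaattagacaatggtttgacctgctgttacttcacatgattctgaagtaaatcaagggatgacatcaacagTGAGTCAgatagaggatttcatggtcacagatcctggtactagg
Mmp8: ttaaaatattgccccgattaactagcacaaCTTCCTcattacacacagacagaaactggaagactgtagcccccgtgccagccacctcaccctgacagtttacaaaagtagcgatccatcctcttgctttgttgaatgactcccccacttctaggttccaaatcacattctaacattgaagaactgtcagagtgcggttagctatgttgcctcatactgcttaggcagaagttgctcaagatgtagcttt
The window of the second Mmp12 start held 1 AP-1 match, TGAGTCA, at 44 to 38 bases before the start. Neither the first Mmp12 window nor the Mmp8 window held that motif, and each held 1 match to CTTCCT. Of 32851 RefSeq promoter windows of this length, 6.75% held TGANTCA on either strand and 29.5% held AGGAAG or CTTCCT. A match is a description of the letters only. Sequences of 6 of the 8 members were in the RefSeq table.

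**Figure D1:**
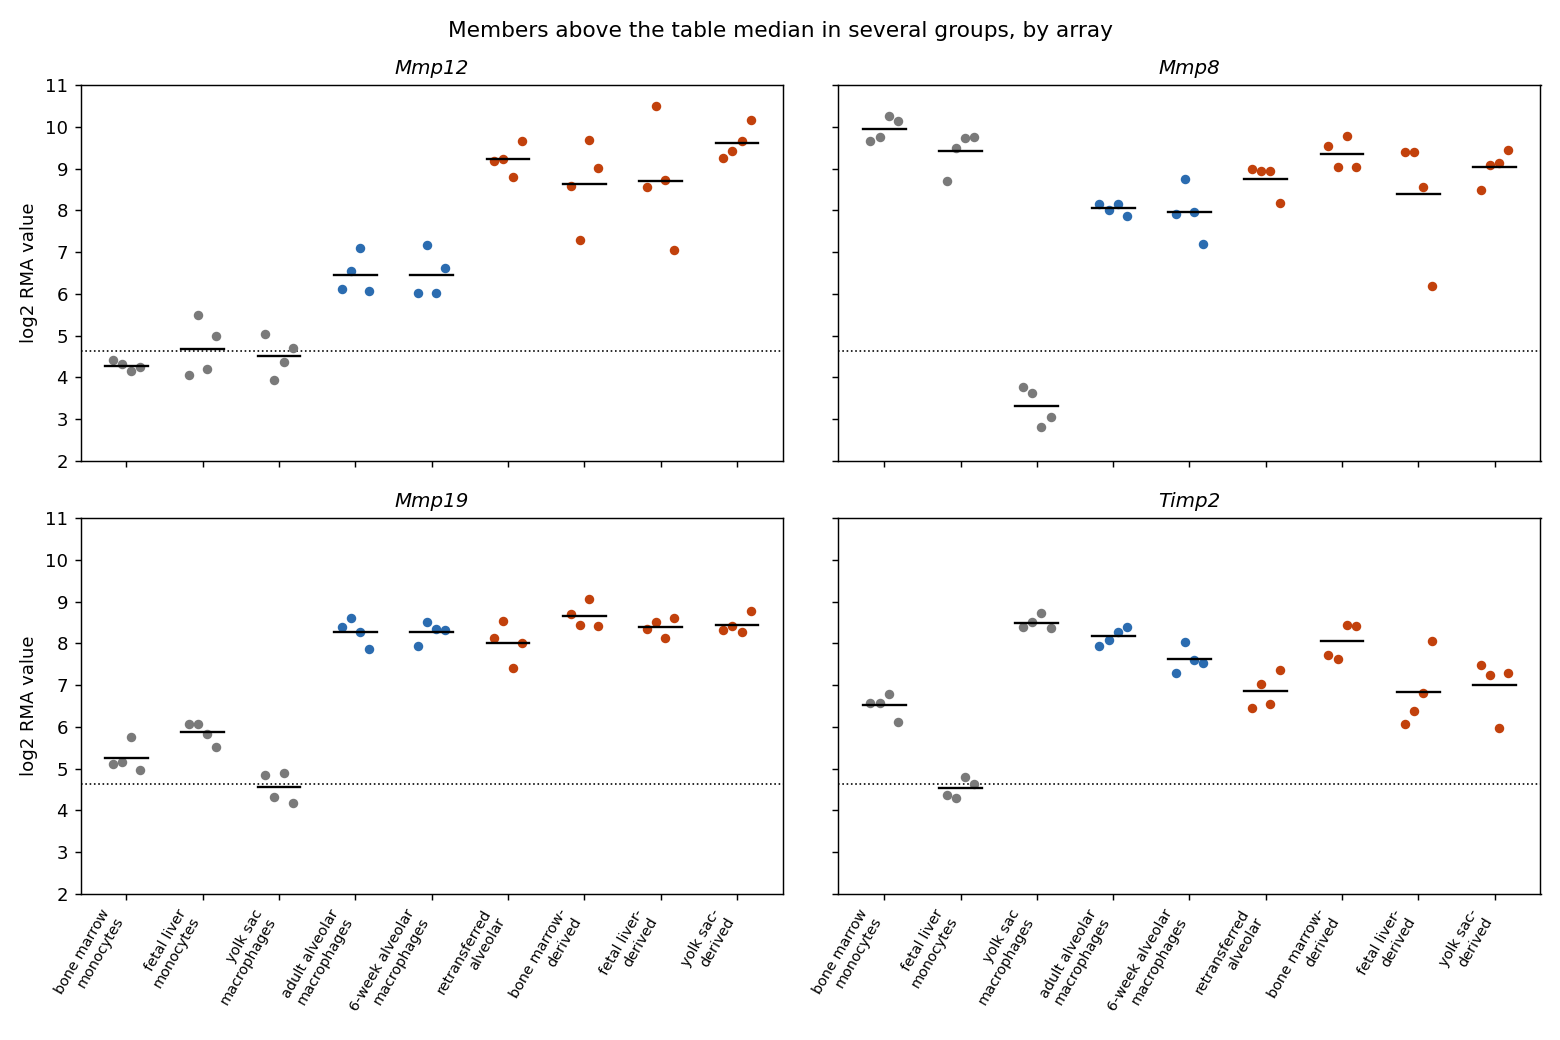
Log2 RMA value (vertical axis) of Mmp12, Mmp8, Mmp19 and Timp2 in each of 36 arrays (points) by group, with group means as black bars and the table median of 4.62 as a dotted line; grey marks precursors, blue untransferred alveolar macrophages and orange transferred cells. For Mmp12, 15 of 16 transferred arrays lie above the highest untransferred array at 7.18, and Mmp8 is low in yolk sac macrophages alone.

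Mmp12, the elastase of macrophages, was dim in all precursors, intermediate in untransferred alveolar macrophages and highest in transferred cells of every origin. Its 4 arrays read 4.41, 4.32, 4.16 and 4.25 in bone marrow monocytes. They read 4.07, 5.49, 4.21 and 4.98 in fetal liver monocytes, and 5.05, 3.93, 4.36 and 4.7 in yolk sac macrophages. The ranges of the precursors overlapped around the table median.
In untransferred alveolar macrophages Mmp12 read 6.12, 6.54, 7.09 and 6.06 in adults and 6.03, 7.18, 6.02 and 6.62 at 6 weeks, above every precursor array. Transferred cells read 8.57, 7.28, 9.68 and 9.02 when derived from bone marrow. They read 8.55, 10.50, 8.73 and 7.05 when derived from fetal liver. All of these but fetal liver-derived replicate 4, at 7.05, exceeded the highest untransferred array.
Yolk sac-derived cells read 9.25, 9.41, 9.66 and 10.16 for Mmp12. Retransferred alveolar macrophages, which were alveolar macrophages before transfer as well as after it, read 9.19, 9.23, 8.79 and 9.67. Both groups lay wholly above the untransferred arrays. In all, 15 of 16 transferred arrays exceeded all 8 untransferred arrays, with medians of 9.21 and 6.33.

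Over transfer Mmp12 rose from every precursor. The log2 difference was 4.35 ± 0.46 (SE, n = 4 per group; adjusted p = 1.83e-09 by limma) from bone marrow monocytes. It was 4.02 ± 0.46 (adjusted p = 8.59e-09 by limma) from fetal liver monocytes and 5.11 ± 0.46 (adjusted p = 3.27e-11 by limma) from yolk sac macrophages. With a lower mean under the table median set to that median, these were rises of 16.1-fold, 16.2-fold and 31.9-fold. The rises did not pass the test as different between origins; the closest, yolk sac against fetal liver, differed by 1.09 with a 95% interval of -0.25 to 2.42, by 1.69 (adjusted p = 0.0326 by limma) without fetal liver-derived replicate 2 and by 0.54 (adjusted p = 0.583 by limma) without replicate 4.
Adult alveolar macrophages that were transferred rose by 2.77 ± 0.46 in Mmp12 (6.82-fold; adjusted p = 0.000729 by limma), and the groups did not overlap. Mmp12 was also called in each comparison with untransferred macrophages of 6 weeks. The difference was 2.17 for bone marrow-derived cells (4.51-fold; adjusted p = 0.00659 by limma) and 2.25 for fetal liver-derived cells (4.74-fold; adjusted p = 0.0056 by limma). It was 3.16 for yolk sac-derived cells (8.91-fold; adjusted p = 2.99e-05 by limma) and 2.76 for retransferred macrophages (6.76-fold; adjusted p = 0.000495 by limma). These 4 comparisons share the 6-week arrays.
Single arrays decided the calls of 2 of these groups. Without bone marrow-derived replicate 3 the Mmp12 difference was 1.82 (adjusted p = 0.0638 by limma), and without fetal liver-derived replicate 2 it was 1.65 (adjusted p = 0.0557 by limma). The fetal liver-derived call was also lost when the fit held those 2 groups alone (adjusted p = 0.185 by limma). Against adult alveolar macrophages as the control, an alternative added after the data were seen, Mmp12 differed by 2.18, 2.26 and 3.17 in bone marrow-derived, fetal liver-derived and yolk sac-derived cells (adjusted p = 0.00775, 0.00553 and 3.16e-05 by limma). Mmp12 at 6 weeks and in untransferred adults differed by 0.01 with a 95% interval of -0.93 to 0.96.

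Mmp12 was the only member called in each of these 4 comparisons with 6-week macrophages. Of all genes tested, 1.31% were called for bone marrow-derived, 1.05% for fetal liver-derived, 1.72% for yolk sac-derived and 1.07% for retransferred cells. Between retransferred and adult alveolar macrophages 0.702% of all genes were called, Mmp12 and Timp2 among them. Between the untransferred groups 0.0163% of all genes were called and 0 members by limma, with 0 members at an unadjusted p under 0.05. Over the 9 group means, the genes whose pattern was most like that of Mmp12 were Plpp3 (Pearson r = 0.994), a lipid phosphate phosphatase, Epas1 (0.980), a hypoxia-inducible transcription factor, and Hey1 (0.979), a Notch target. Of 13 tested alveolar macrophage markers, 4 were called lower than at 6 weeks in yolk sac-derived cells. In bone marrow-derived and in fetal liver-derived cells 1 was called lower, and in retransferred cells 1 was called higher.
Among genes on the marker lists of other cells, 1 was called beside Mmp12 in all 4 of these comparisons and 2 in fetal liver-derived cells alone. Cdh1, which codes for E-cadherin and led the lung epithelium list, was higher than at 6 weeks by 0.96, 0.74, 1.02 and 0.78 in bone marrow-derived, fetal liver-derived, yolk sac-derived and retransferred cells, and it was the 1 gene of that list of 9 tested that was called. Untransferred alveolar macrophages also had Cdh1, at means of 7.54 in adults and 7.60 at 6 weeks, where the list medians were 5.17 and 5.36. The summed level of the list was 9.04 to 9.66 in transferred arrays and 8.93 to 9.30 in untransferred lavage arrays. Sftpc, a defining gene of alveolar epithelium, had group means of 4.18 to 5.28 in lavage groups. S100a8 differed from its 6-week level by 1.70 (adjusted p = 0.0275 by limma) and Cxcr2 by 1.67 (adjusted p = 0.0262 by limma) in fetal liver-derived cells, each the 1 called gene of the monocyte and neutrophil lists there; within that group replicate 4 had the highest S100a8, 12.04, and the lowest Mmp12, 7.05. In the other 3 groups the S100a8 difference was 0.98 to 1.38 and that of Cxcr2 0.74 to 1.41, and neither was called. The monocyte list summed to 9.04 to 12.10 in transferred and 9.09 to 10.49 in untransferred arrays, with Plac8 at group means of 3.21 to 3.83 and Ifitm6 at 2.83 to 2.95. The part of such cells in the Mmp12 levels was not tested.

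**Figure D2:**
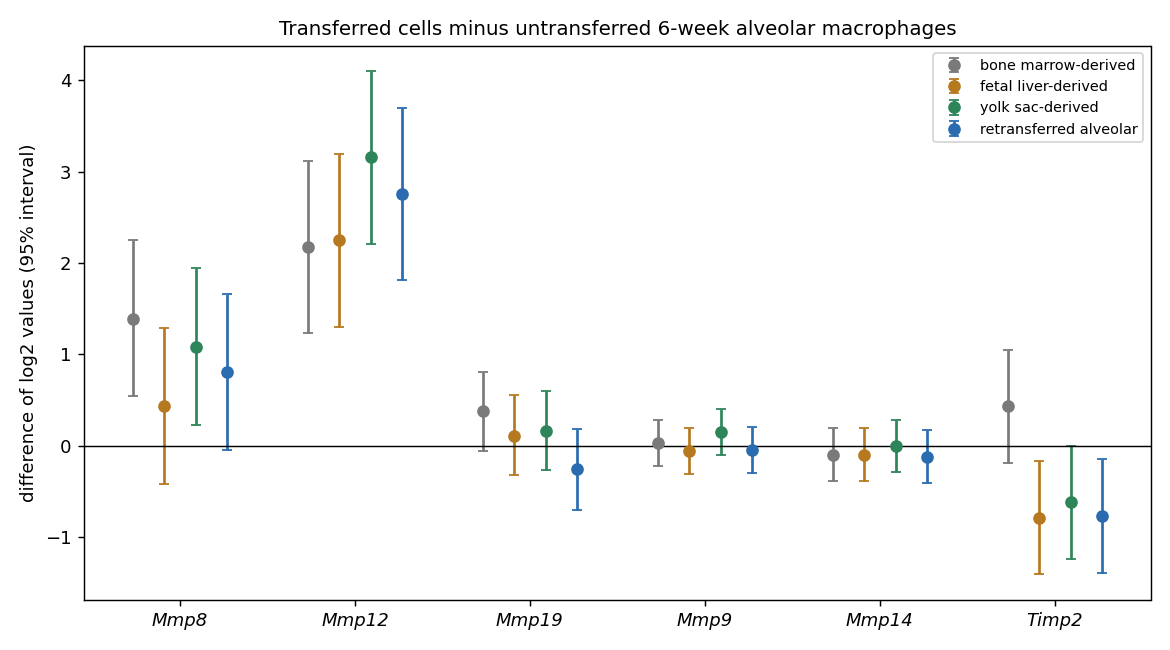
Difference in log2 value from untransferred 6-week alveolar macrophages (vertical axis) for the 6 tested members, as points with 95% intervals from limma for the 4 transferred groups. Mmp12 lies between 2.17 and 3.16 in all 4 groups, while the other members lie between -0.79 and 1.39 and were not called.

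Mmp8, the collagenase of neutrophil granules, was high in both monocyte populations, dim in yolk sac macrophages and high in alveolar macrophages of every origin. It read 9.66, 9.75, 10.25 and 10.13 in bone marrow monocytes and 8.70, 9.49, 9.72 and 9.75 in fetal liver monocytes. It read 3.77, 3.63, 2.81 and 3.05 in yolk sac macrophages. The yolk sac arrays lay far below all others and below the table median.
The difference in Mmp8 was -6.63 ± 0.42 between yolk sac macrophages and bone marrow monocytes (adjusted p = 4.41e-15 by limma) and -6.1 ± 0.42 between yolk sac macrophages and fetal liver monocytes (adjusted p = 4.64e-14 by limma). The monocyte populations differed by -0.53 with a 95% interval of -1.39 to 0.32, and by -0.29 without fetal liver monocyte replicate 1. After transfer the yolk sac-derived cells read 8.48, 9.08, 9.12 and 9.45. This was a rise of 5.72 ± 0.42 (21.3-fold against the table median; adjusted p = 1.67e-13 by limma).
Mmp8 was also high in cells derived from monocytes. It read 9.53, 9.04, 9.78 and 9.03 in bone marrow-derived cells, a difference of -0.60 from their precursors that was not called (95% interval -1.45 to 0.25) unless the fit held those 2 groups alone (adjusted p = 0.041 by limma). It read 9.40, 9.40, 8.55 and 6.20 in fetal liver-derived cells, a difference of -1.03 (adjusted p = 0.0512 by limma). Replicate 4, at 6.20, was low, and without it the difference was -0.30 (adjusted p = 0.494 by limma). Without replicate 1 or without replicate 2, which left replicate 4 in, it was -1.37 in each case, with adjusted p = 0.0121 and 0.0122 by limma. The rise from yolk sac macrophages differed from the change in bone marrow monocytes by 6.32 ± 0.59 (adjusted p = 1.89e-10 by limma) and from that in fetal liver monocytes by 6.75 ± 0.59 (adjusted p = 4.65e-11 by limma).

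Among alveolar macrophages, Mmp8 was lower in untransferred than in most transferred arrays. It read 8.16, 8.0, 8.16 and 7.87 in untransferred adults and 7.91, 8.75, 7.95 and 7.19 at 6 weeks. Retransferred macrophages read 8.99, 8.93, 8.95 and 8.17, and 12 of 16 transferred arrays exceeded all 8 untransferred arrays. The differences did not pass the test: bone marrow-derived cells exceeded the 6-week group by 1.39 ± 0.42 (adjusted p = 0.12 by limma) without overlap, and retransferred cells exceeded adult ones by 0.71 ± 0.42 (adjusted p = 0.694 by limma), also without overlap. The first was called when the fit held the compared groups alone (adjusted p = 0.0495 by limma) or when arrays were weighted (adjusted p = 0.0345 by limma).

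Since Mmp8 is a neutrophil granule gene, markers of neutrophils were read beside it. In bone marrow monocytes 11 of 14 markers had means above the table median and the summed level was 11.28 to 13.65; in fetal liver monocytes the count was again 11 and the sum was 12.80 to 13.57. Granule genes stood high there: Camp averaged 10.99 and 9.47, Elane 9.20 and 10.52, and Mpo 8.94 and 11.15 in bone marrow and fetal liver monocytes. Ly6g, which defines mature neutrophils, stayed between 2.49 and 3.47 in all arrays and Retnlg between 3.40 and 4.07. The part of granulocytes or their progenitors in the monocyte level of Mmp8 was not tested.
In lavage arrays Mmp8 was present with the granule genes read here near or under the table median. Across the 6 lavage groups the means were 3.44 to 3.95 for Ngp, 4.46 to 4.79 for Camp, 3.45 to 3.94 for Lcn2, 4.44 to 4.68 for Elane and 4.12 to 4.31 for Mpo. S100a8, which monocytes and neutrophils share, was high in them, with group means of 9.15 to 10.86. The summed neutrophil list was still 11.34 to 12.11 in lavage arrays because of Wfdc21, whose group means were 11.43 to 11.83; it was 8.07 to 8.20 in yolk sac macrophages. By group mean 4 or 5 of the 14 neutrophil markers, Wfdc21 among them, were above the table median in each lavage group. Cxcr2, also of that list, was called higher in fetal liver-derived cells than at 6 weeks, as given above. The part of granulocytes in the lavage level of Mmp8 was not tested. Genes with a pattern over the 9 group means most like that of Mmp8 were Dhrs7 (Pearson r = 0.992), Atp11b (0.988) and Gsr (0.987), the glutathione reductase.

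**Figure D3:**
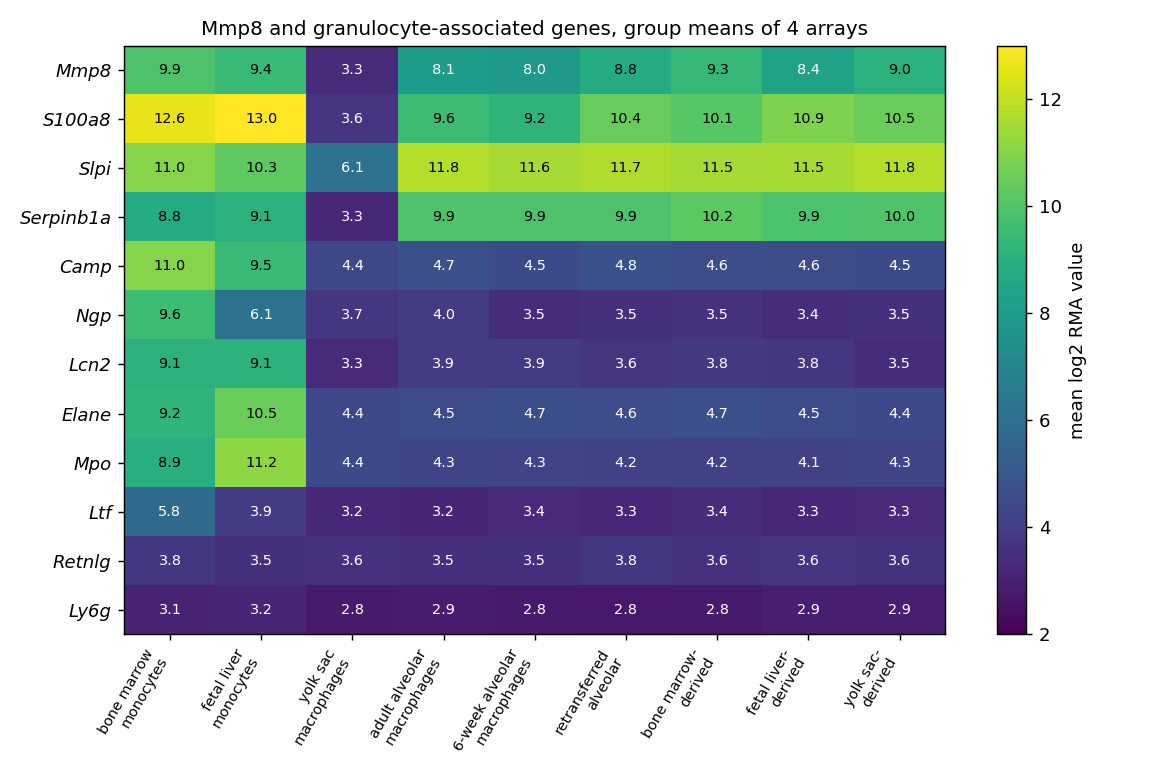
Mean log2 RMA value of 4 arrays (colour and printed number) for Mmp8 and 11 granulocyte-associated genes (rows) in the 9 groups (columns). Camp, Elane and Mpo are high in monocytes and at or below 4.8 in lavage groups, where Mmp8 is at 8.0 to 9.3.

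Mmp19, a secreted metalloproteinase that acts on basement membrane proteins, separated alveolar macrophages from precursors and was alike in transferred and untransferred cells. It read 5.11, 5.16, 5.77 and 4.96 in bone marrow monocytes and 6.07, 6.06, 5.83 and 5.52 in fetal liver monocytes. It read 4.85, 4.32, 4.90 and 4.18 in yolk sac macrophages. All 24 lavage arrays lay between 7.40 and 9.07 and all 12 precursor arrays between 4.18 and 6.07, with no overlap.
Mmp19 rose by 3.40 ± 0.21 from bone marrow monocytes (10.6-fold), by 2.52 ± 0.21 from fetal liver monocytes (5.75-fold) and by 3.88 ± 0.21 from yolk sac macrophages (14.1-fold against the table median), with adjusted p = 4.14e-15, 8.61e-12 and 9.5e-17 by limma. The rise from yolk sac macrophages exceeded that from fetal liver monocytes by 1.36 ± 0.30 (adjusted p = 0.000867 by limma). The rise from fetal liver monocytes differed from that from bone marrow monocytes by -0.88 ± 0.30, which missed the threshold (adjusted p = 0.0592 by limma) but passed after quantile normalization (-0.91, adjusted p = 0.0338 by limma). In precursors Mmp19 of yolk sac macrophages differed from that of bone marrow monocytes by -0.69 (adjusted p = 0.00925 by limma), a call lost without bone marrow monocyte replicate 3 (adjusted p = 0.0603 by limma) or yolk sac macrophage replicate 4 (adjusted p = 0.0504 by limma). It differed from that of fetal liver monocytes by -1.31 (adjusted p = 7.39e-06 by limma). The fetal liver excess over bone marrow of 0.62 (adjusted p = 0.038 by limma) was lost without any 1 of 6 arrays.
Group means among lavage groups ran from 8.02 ± 0.47 (SD, n = 4) in retransferred to 8.66 ± 0.31 in bone marrow-derived cells, and neighbours in this order overlapped. Retransferred and adult macrophages differed by -0.26 with a 95% interval of -0.70 to 0.17. Genes most like Mmp19 over the 9 group means were Myl12a (Pearson r = 0.996) and Myh9 (0.995), chains of non-muscle myosin, and Olr1 (0.995), a receptor for oxidised LDL.

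Timp2, the inhibitor that takes part in pro-Mmp2 activation, differed between all 3 precursors. It read 8.38, 8.51, 8.72 and 8.37 in yolk sac macrophages, 6.57, 6.58, 6.78 and 6.12 in bone marrow monocytes, and 4.38, 4.29, 4.81 and 4.64 in fetal liver monocytes. The 3 ranges did not overlap.
Timp2 in yolk sac macrophages exceeded that in bone marrow monocytes by 1.98 ± 0.30 (3.95-fold; adjusted p = 1.95e-06 by limma) and that in fetal liver monocytes by 3.96 ± 0.30 (14.6-fold against the table median; adjusted p = 7.45e-13 by limma). Fetal liver monocytes differed from bone marrow monocytes by -1.98 ± 0.30 (adjusted p = 7.86e-06 by limma).
Timp2 changed over transfer in opposite directions by origin. It rose by 1.54 ± 0.30 from bone marrow monocytes (adjusted p = 0.000108 by limma) and by 2.30 ± 0.30 from fetal liver monocytes (adjusted p = 1.32e-07 by limma). It fell by 1.5 ± 0.30 from yolk sac macrophages (adjusted p = 0.000121 by limma). The yolk sac change differed from that of bone marrow by -3.03 ± 0.43 (adjusted p = 9.53e-07 by limma) and from that of fetal liver by -3.79 ± 0.43 (adjusted p = 1.4e-08 by limma).

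Among lavage groups Timp2 read 7.94, 8.07, 8.28 and 8.39 in adults and 7.30, 8.02, 7.61 and 7.54 at 6 weeks. It read 7.73, 7.63, 8.43 and 8.41 in bone marrow-derived cells, within or next to the untransferred range. It read 6.06, 6.39, 6.81 and 8.05 in fetal liver-derived, 7.48, 7.25, 5.97 and 7.29 in yolk sac-derived and 6.45, 7.02, 6.56 and 7.36 in retransferred cells. In all, 9 of 16 transferred arrays lay below all 8 untransferred arrays and 2 lay above them.
Timp2 in retransferred macrophages differed from that in adult ones by -1.32 ± 0.30 (adjusted p = 0.0225 by limma), without overlap. That call was lost without adult replicate 3 or 4 or retransferred replicate 1 or 3, with adjusted p = 0.0751, 0.0769, 0.106 and 0.0903 by limma. Against 6-week macrophages no transferred group passed the test for Timp2, with differences of 0.43, -0.79, -0.62 and -0.77 in bone marrow-derived, fetal liver-derived, yolk sac-derived and retransferred cells (adjusted p = 0.813, 0.425, 0.58 and 0.386 by limma). Without yolk sac-derived replicate 3, at 5.97, the yolk sac-derived difference was -0.28 (adjusted p = 0.973 by limma). Against adult macrophages as the control, the differences were -1.34 in fetal liver-derived cells (adjusted p = 0.0154 by limma) and -1.17 in yolk sac-derived cells (adjusted p = 0.0302 by limma), both called, and -0.12 in bone marrow-derived cells.
Fetal liver-derived replicate 4 stood apart from its group in several members: Mmp8 at 6.20, Mmp12 at 7.05 and Timp2 at 8.05. Without it Timp2 of fetal liver-derived cells differed from its 6-week level by -1.2 (adjusted p = 0.0157 by limma) and from bone marrow-derived cells by -1.63 (adjusted p = 0.00114 by limma); with it the latter difference was -1.22 (adjusted p = 0.071 by limma). The genes whose pattern was most like that of Timp2 over the 9 group means were Exoc6b (Pearson r = 0.948), P4ha1 (0.946), a subunit of the enzyme that hydroxylates collagen prolines, and Appl1 (0.944).

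Between transferred groups of different origin, 0 members were called by limma in any of 6 comparisons. At an unadjusted p under 0.05 there were 2 members for fetal liver-derived against bone marrow-derived cells, 2 for yolk sac-derived against bone marrow-derived cells, 2 for bone marrow-derived against retransferred cells and 0 in the other 3 comparisons. With array weights Timp2 was called in the first 3 of these. Of all genes, 0.417%, 0.833% and 0.27% were called for fetal liver-derived against bone marrow-derived, yolk sac-derived against bone marrow-derived and yolk sac-derived against fetal liver-derived cells. The shares were 0.425%, 0.335% and 0.588% for bone marrow-derived, fetal liver-derived and yolk sac-derived cells against retransferred ones.

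**Figure D4:**
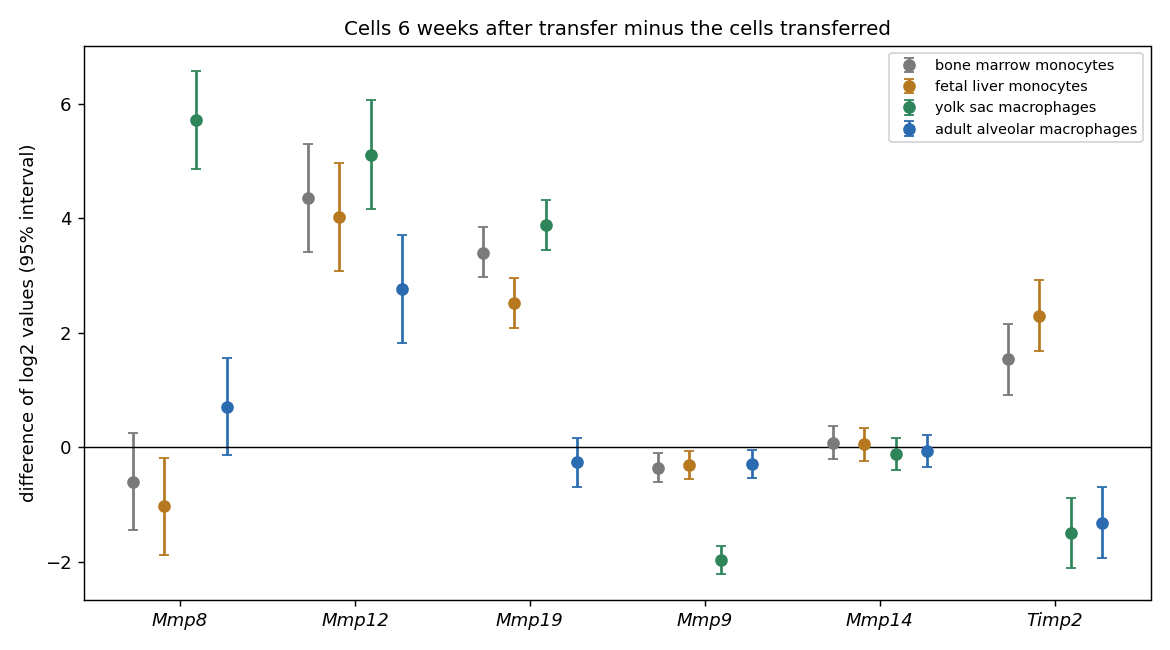
Log2 value 6 weeks after transfer minus that of the cells transferred (vertical axis), with 95% intervals from limma, for the 6 tested members in the 4 origins. Mmp12 rose in all 4, and Timp2 rose from both monocyte populations and fell from yolk sac and adult alveolar macrophages. Mmp8 was called higher from yolk sac macrophages alone. Its difference of 0.71 from adult alveolar macrophages was not called.

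Mmp9, gelatinase B, was above the table median only in yolk sac macrophages, at 5.91, 5.76, 5.39 and 5.82. All other arrays lay between 3.33 and 4.10, so the monocytes, untransferred and transferred macrophages were all dim. The yolk sac mean exceeded that of bone marrow monocytes by 1.74 ± 0.12 and that of fetal liver monocytes by 1.88 ± 0.12, and the difference after transfer was -1.97 ± 0.12. These are given as a description, since Mmp9 was tested only because of its yolk sac level. The changes of -0.36 and -0.31 from bone marrow and fetal liver monocytes were called (adjusted p = 0.0223 and 0.0455 by limma), but both groups of each comparison lay under the table median. These calls were lost without any 1 of 4 and of 6 arrays respectively, and after quantile normalization (adjusted p = 0.0837 and 0.0829 by limma).
The list of tissue and fetal macrophages summed to 14.31 to 14.44 in the yolk sac arrays and 9.08 to 12.73 elsewhere. In yolk sac macrophages 11 of its 12 markers were above the table median. The endothelial list summed to 7.47 to 7.66 against 7.50 to 8.07 elsewhere, and the neutrophil list to 8.07 to 8.20 against 11.28 to 13.65. Some markers of other cells were higher in the yolk sac arrays, though the summed ranges of fibroblasts, megakaryocytes and lymphocytes overlapped those elsewhere. The embryonic globin Hbb-y averaged 10.44 there, and the summed erythroid list was 10.53 to 11.55 against 6.93 to 7.43 in all other groups. Apoa2, of visceral endoderm and liver, averaged 7.59, and its list summed to 8.77 to 9.41 against 7.63 to 8.28 elsewhere. The fibroblast list summed to 8.13 to 8.47 in yolk sac macrophages and 7.83 to 8.28 elsewhere, with 4 of 12 markers above the table median in every group. The megakaryocyte list summed to 6.96 to 7.66 in yolk sac macrophages and 6.23 to 6.97 elsewhere. Ppbp, a platelet chemokine, averaged 6.34 and was the 1 of 5 measured markers above the table median there. Of 3 tested genes of that list 1 was higher and 1 lower than in bone marrow monocytes, where 42.2% of all genes were called. The lymphocyte list summed to 8.74 to 9.10 against 6.52 to 8.81 elsewhere, led by the B cell receptor subunit Cd79b at 8.62. Cd79b also led that list in bone marrow and fetal liver monocytes, at 6.52 and 7.84. Of its 2 tested genes 1 was higher than in bone marrow monocytes. The part of such cells in the yolk sac values of Mmp9 and Timp2 was not tested. Genes most like Mmp9 over the 9 group means were Igf2 (Pearson r = 0.993), a fetal growth factor, S1pr1 (0.991), a sphingosine phosphate receptor, and Glis3 (0.991). Each was highest in yolk sac macrophages, the only group in which Mmp9 was not dim. These correlations therefore rest on that group and are a description.

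Mmp14, the membrane-anchored activator of pro-Mmp2, stayed between 4.03 and 4.84 in all 36 arrays and above the table median in 6 of them. It was not called in any comparison as fitted here; after quantile normalization the level of yolk sac macrophages exceeded that of bone marrow monocytes by 0.35 (adjusted p = 0.044 by limma). Group means ran from 4.33 ± 0.20 (SD, n = 4) in bone marrow monocytes to 4.62 ± 0.12 in yolk sac macrophages, and neighbours in the order overlapped. Timp1, the inhibitor that binds pro-Mmp9, lay between 2.99 and 3.99, and Timp3, which is bound to matrix and also inhibits Adam17, lay between 3.03 and 3.72. Without the filter on dim genes Timp1 passed over transfer of yolk sac macrophages, at 0.51 ± 0.17 (adjusted p = 0.0203 by limma), with every array under the table median. At these levels a difference in Timp1, Timp3 or Mmp14 could not be measured reliably.

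**Figure D5:**
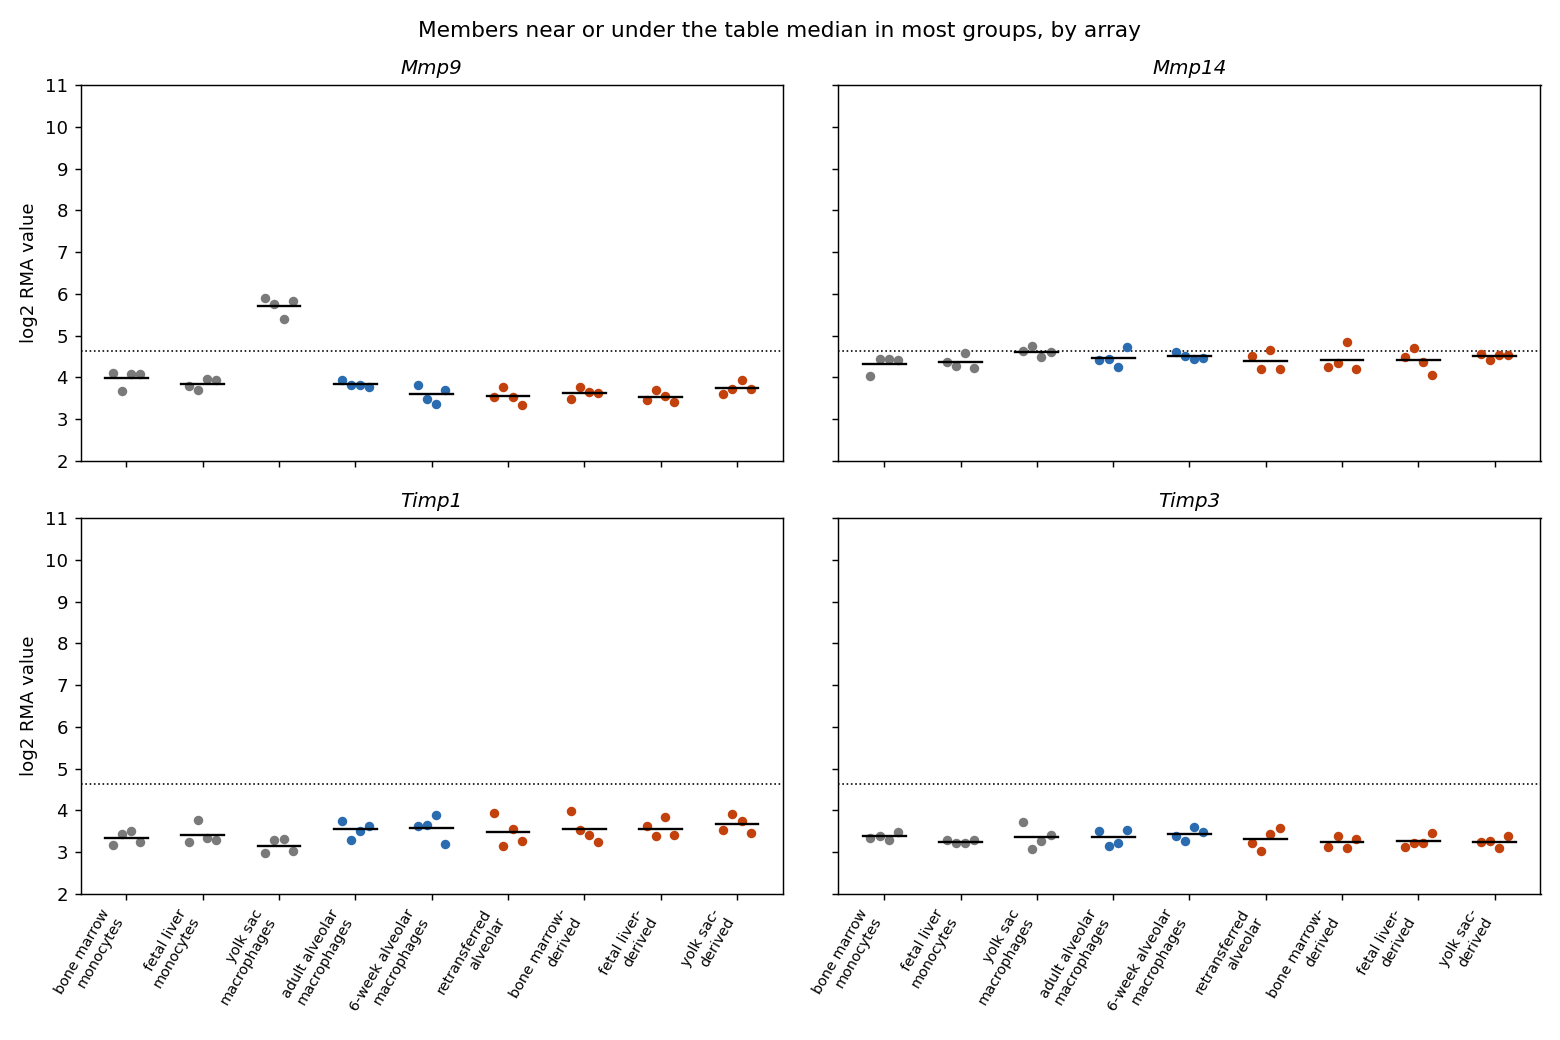
Log2 RMA value (vertical axis) of Mmp9, Mmp14, Timp1 and Timp3 in each of 36 arrays (points) by group, with group means as black bars and the table median of 4.62 as a dotted line. Mmp9 exceeds the line in the 4 yolk sac arrays alone, and Timp1 and Timp3 lie under it in all arrays.

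Mmp9 was left out of the counts of called members because it was tested only through its yolk sac level, which leaves 5. Of these, 2 were called between fetal liver and bone marrow monocytes, where 19.5% of all genes were called. In the yolk sac comparisons 3 were called against bone marrow monocytes and 3 against fetal liver monocytes, where the shares of all genes were 42.2% and 33.1%. Over transfer 3, 3 and 4 were called from bone marrow monocytes, fetal liver monocytes and yolk sac macrophages, where 36.4%, 38.3% and 42.9% of all genes were called. The change differed between yolk sac macrophages and bone marrow monocytes for 2 members, with 30.6% of all genes, and between yolk sac macrophages and fetal liver monocytes for 3 members, with 22.9%. For fetal liver against bone marrow monocytes it was 0 members by limma, with 9.94% of all genes and 1 member at an unadjusted p under 0.05.

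Other genes of matrix proteolysis were read from lists. Of 17 other metalloproteinases measured, 10 were under the table median in all arrays and 5 were tested. Mmp13, a collagenase, averaged 5.30 in yolk sac macrophages; the other group means were 3.80 to 4.03. Like Mmp9 it was above the table median in the 4 yolk sac arrays alone and entered the test only through them, so its difference of 1.28 from bone marrow monocytes is a description. Mmp2, gelatinase A, was higher in bone marrow-derived cells than in bone marrow monocytes by 0.71 (adjusted p = 0.00443 by limma), with 1 array of 6.12 and 3 from 4.67 to 5.26. Beside Mmp13, no metalloproteinase of the list was called between yolk sac macrophages and bone marrow monocytes or over transfer of yolk sac macrophages. Beside Mmp2, none was called over transfer of bone marrow monocytes. Of all genes 42.2%, 42.9% and 36.4% were called in these comparisons. The list was dim, with a median level of 3.80 to 4.05 across groups, under the table median.

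Of the other protease inhibitors 2 passed the filter, and both followed the pattern of Mmp8 in precursors. Slpi, the secretory leukocyte protease inhibitor, averaged 11.02 in bone marrow monocytes, 10.28 in fetal liver monocytes and 6.09 in yolk sac macrophages. Serpinb1a, an inhibitor of neutrophil elastase, averaged 8.76, 9.07 and 3.26. After transfer of yolk sac macrophages Slpi rose by 5.68 and Serpinb1a by 6.73 (adjusted p = 2.74e-26 and 4.3e-28 by limma). In lavage groups Slpi averaged 11.53 to 11.78 and Serpinb1a 9.88 to 10.24.

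Plasminogen activation is a system that can activate metalloproteinases. Of its 5 tested genes yolk sac macrophages had 2 at a higher and 3 at a lower level, set against bone marrow monocytes, where 42.2% of all genes were called. Plau, the urokinase activator, was higher by 3.79 and averaged 10.20, while Plaur, its receptor, differed by -1.31 and Anxa2, a plasminogen-binding annexin, by -2.49. The list's median was -1.31 and that of all genes -0.01. Over transfer of yolk sac macrophages Plau fell by 3.19 and the other 4 rose. Against 6-week macrophages Plau, like Mmp12, was higher in bone marrow-derived, yolk sac-derived and retransferred cells, by 0.97, 1.07 and 0.92 (adjusted p = 0.00764, 0.00167 and 0.0162 by limma); in fetal liver-derived cells the difference was 0.79 (adjusted p = 0.0644 by limma).

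Set against bone marrow monocytes, yolk sac macrophages had 3 of 11 tested Adam and Adamts genes at a higher level and 3 at a lower one, where 42.2% of all genes were called. The list's median was -0.12 and that of all genes -0.01. Adamts1, a secreted protease of proteoglycans, was higher by 3.15, and Adam9 and Adam19 by 0.96 and 0.73. Adam9 rose over transfer from bone marrow and fetal liver monocytes, by 1.18 and 1.15, and Adam17, the tumour necrosis factor convertase, by 0.72 and 0.65. Adam15 fell from all 3 precursors, with differences of -0.84, -1.14 and -1.34.

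Among 12 tested activators and partners of metalloproteinases, 3 rose and 5 fell over transfer from bone marrow monocytes, and 4 rose and 1 fell from yolk sac macrophages. Of all genes 36.4% and 42.9% were called in these comparisons, and the yolk sac count is near that share. The list's medians were -0.10 and 0.07, and those of all genes -0.02 and 0. Those that fell most clearly from bone marrow monocytes were Prtn3, Elane and Ctsg, proteases of granules, with differences of -5.03, -4.52 and -4.68, and Lcn2, a lipocalin of granules, with -5.25. From yolk sac macrophages Cd44, a surface anchor for metalloproteinases, rose by 1.57. Furin, which removes the propeptide of Mmp14, rose by 1.72, and Lrp1, a receptor that clears proteases, by 1.89.

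AP-1 and Ets factors are known regulators of metalloproteinase genes. Of 9 tested, 7 were higher and 1 was lower in yolk sac macrophages when set against bone marrow monocytes (42.2% of all genes were called), with a list median of 2.47 and a median of all genes of -0.01. Etv5 was higher by 5.43, Ets2 by 4.7, Fosb by 4.31 and Jun by 2.71. Over transfer of yolk sac macrophages 2 rose and 7 fell. Several of these are early response genes, and yolk sac and fetal liver cells were both released by collagenase. Set against fetal liver monocytes, yolk sac macrophages had 7 higher and 1 lower, with a list median of 1.56 (33.1% of all genes were called). Fetal liver monocytes had 3 higher and 1 lower when set against bone marrow monocytes, with a list median of 0.2 (19.5% of all genes were called). The part of the preparation was not tested.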

How the data were processed

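RNA of sorted cells was measured on 36 arrays. The authors deposited log2 values per probe set; the submitters' processing notes name RMA and no version. RMA forces all arrays to a common distribution, which removes shifts shared by most genes and compresses folds of dim genes. The deposited values were used unchanged. Probe sets with 1 symbol in the platform annotation were used (21789 of 35556); symbols were updated through RefSeq, and 999 genes had more than 1 probe set, of which the brightest on average was kept.

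Groups came from sample titles. limma 3.58.1 (lmFit and eBayes, R 4.3.3) was run over all 36 arrays with a mean for each group, which gave 18 group contrasts and 3 differences between changes. Genes above the table median (4.623) in at least 4 arrays were tested, and p-values were adjusted by Benjamini-Hochberg within a contrast over 12244 genes; a call is an adjusted p under 0.05. Differences are given ± SE and levels ± SD. The fit was tested on simulated data. Nothing beyond the titles' "biological replicate" says which animals the samples came from, and animals may have been pooled.

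All members were named by rule. From each pathway list, up to 4 genes with the lowest adjusted p per contrast could be named; from cell lists, leading markers; and for each member, the 3 other genes with the highest correlation over the 9 group means. The members and lists were chosen with earlier results of these data known.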

Additional observations from a re-analysis of the deposited data

Results flagged for a closer look

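Within groups of 4 arrays, 5 values stood far from the other 3 by Dixon's test among the 72 combinations of member and group examined; chance gives about 1 in 20. Mmp8 read 8.17 in retransferred replicate 4 against 8.93 to 8.99 in the others. Mmp9 read 3.67 in bone marrow monocyte replicate 2 against 4.08 to 4.10. Mmp14 read 4.03 in bone marrow monocyte replicate 1 against 4.42 to 4.45, and 4.41 in yolk sac-derived replicate 2 against 4.53 to 4.55. These Mmp9 and Mmp14 values lie under the table median. Timp2 read 5.97 in yolk sac-derived replicate 3 against 7.25 to 7.48.

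The change over transfer differed between origins by a tested interaction in 5 cases without Mmp9. Such a difference is the gap between transferred groups minus the gap between their precursors. Relative to bone marrow monocytes, the change from yolk sac macrophages differed by 6.32 for Mmp8 and -3.03 for Timp2. The gaps were -6.63 and 1.98 before transfer, and -0.31 and -1.05 after it. Relative to fetal liver monocytes the yolk sac change differed by 6.75 for Mmp8, 1.36 for Mmp19 and -3.79 for Timp2. The gaps were -6.1, -1.31 and 3.96 before transfer, and 0.65, 0.05 and 0.17 after it. No gap after transfer was called as fitted here. For Mmp9 the differences were -1.62 and -1.66; it entered the test only through its yolk sac level, so they are values and not a test.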

How the results depend on the processing

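No called difference of a member reversed its direction under any alternative run. The counts of members here are over all 6 tested, Mmp9 included. The count of members called between fetal liver and bone marrow monocytes was 1 instead of 2 with no filter, with only the compared groups fitted and with array weights, and 1 to 2 on leaving out each array. For retransferred against adult macrophages it was 1 to 2 on leaving out each array. Against 6-week macrophages it was 2 instead of 1 for bone marrow-derived cells with only the compared groups fitted and with array weights (0 to 1 leaving out each array), and 0 instead of 1 for fetal liver-derived cells with only the compared groups fitted, where Mmp12 had an adjusted p of 0.185 by limma (0 to 2 leaving out each array). With adult macrophages as the control, chosen after seeing the data, it was 2 for fetal liver-derived and 2 for yolk sac-derived cells. With array weights it was 1 instead of 0 for fetal liver-derived against bone marrow-derived (0 to 1 leaving out each array), yolk sac-derived against bone marrow-derived and bone marrow-derived against retransferred cells. For the difference in change between fetal liver and bone marrow monocytes it was 1 instead of 0 after quantile normalization, and 0 to 1 leaving out each array; the member was Mmp19. The causes were not tested.

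Over all groups together, 144 pairs with the same replicate number correlated with a median of 0.004, and 432 pairs with different numbers with 0.002. Of the same-number pairs 27 exceeded 0.1, and the highest was 0.419. A median over all groups cannot exclude pairing between particular groups. With the replicate block, the counts of members called, over all 6 tested, were unchanged in every comparison. Over transfer of fetal liver monocytes the count stayed at 4, where 38.3% of all genes were called in the main fit. With the block Mmp8 passed there (adjusted p = 0.0441 by limma) and Mmp9 did not (adjusted p = 0.0578 by limma). Fitting only the compared groups called 45 of all genes instead of 86 for retransferred against adult and 74 instead of 128 for fetal liver-derived against 6-week cells. For fetal liver-derived and yolk sac-derived against bone marrow-derived cells it called 13 instead of 51 and 63 instead of 102, for yolk sac-derived against fetal liver-derived cells 9 instead of 33, for bone marrow-derived and fetal liver-derived against retransferred cells 32 instead of 52 and 15 instead of 41, and for 6-week against adult macrophages 0 instead of 2. Without bone marrow-derived replicate 1 or retransferred replicate 3, bone marrow-derived against retransferred cells gave 29 and 30 genes; leaving out single arrays gave 1 to 5 genes for 6-week against adult macrophages. Without the filter Timp1, otherwise not tested, passed over transfer of yolk sac macrophages (0.51, adjusted p = 0.0203 by limma). Dim values limit Timp1, Timp3, Mmp14 and, outside yolk sac, Mmp9.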
